A study of Mus musculus with 2 samples.

Results

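Interferon-stimulated genes are the transcripts that cells raise when an interferon binds its receptor. A set of 34 such genes was taken from a list chosen for this comparison, and all 34 were among the 13528 genes of the filtered count table. The list was set by known function, with earlier results of these data at hand. Their transcripts were followed in liver CD45+ cells, that is in leukocytes, of mice with autoimmune cholangitis (TG) and of wild type mice (WT), for each of the 14 cell type names in the deposited cell table. Each transcript molecule was counted once through a unique molecular identifier (UMI) on the BD Rhapsody system.

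Both groups were of the C57BL/6 strain, and their labelled age was 10 weeks, which is older than the age in the published methods. TG animals are dnTGFβRII mice, which are used to model primary biliary cholangitis. Their transgene encodes a human receptor that blocks TGF-β signalling, and its CD4 promoter is active in T cells. How many mice were pooled is not given in the sources used here. TG cells were captured together with cells of IFN-γ ARE-Del-/- mice, and WT cells together with cells of P40-/-IL-2Ra-/- mice. Only TG and WT cells carry a genotype name in the deposited cell table. The TG library held 4647 such cells with 18498477 UMIs (median 3298 per cell), and the WT library 7282 cells with 22216379 UMIs (median 2653.5). There was 1 library per genotype and hence no replicate, no test was made between genotypes, and genotype and library cannot be told apart. Intervals are exact at 95% and cover counting error only, not the spread between mice.

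Type I interferons bind IFNAR1 and IFNAR2, and the kinases JAK1 and TYK2 then start the signal that assembles the complex ISGF3, of which STAT2 and IRF9 are parts. ISGF3 binds the interferon-stimulated response element (ISRE) in the promoters of antiviral genes. IFN-γ binds its own receptor and acts mainly on the gamma-activated site (GAS). Many genes respond to both, and most of the 34 genes described here are known best as targets of type I interferon.

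The 34 genes were read against the promoters of RefSeq on GRCm38.p6, from 250 bases before to 50 bases after each start. A promoter entry was found for 28 of the 34 genes and none for Usp18, Rtp4, Dhx58, Parp14, Ifi27l2a and Zbp1. The ISRE core GAAANNGAAA, sought on both strands, was in the promoters of 13 of these 28 genes (46.4%), beside 3.99% of the 27025 genes with an entry. The GAS letters TTCNNNGAA were in 7 of the 28 (25%), beside 9.55% of all genes. A match describes the letters and shows no binding. Stretches from 165 to 46 bases before the start are shown for 5 genes that carry the ISRE core there and for 2 whose promoters hold none, because these genes recur below. Capitals mark each match of the ISRE core, overlapping matches are joined, and where the run reads in the TTTC sense the core lies on the other strand.
Isg15, chr4:156200864-156200983, minus strand: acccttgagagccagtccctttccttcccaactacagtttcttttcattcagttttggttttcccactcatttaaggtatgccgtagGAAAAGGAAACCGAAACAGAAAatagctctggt
Ifit1, chr19:34640724-34640843, plus strand: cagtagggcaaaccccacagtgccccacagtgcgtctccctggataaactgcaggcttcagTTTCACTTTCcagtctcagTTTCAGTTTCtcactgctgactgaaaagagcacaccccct
Ifit3, chr19:34583364-34583483, plus strand: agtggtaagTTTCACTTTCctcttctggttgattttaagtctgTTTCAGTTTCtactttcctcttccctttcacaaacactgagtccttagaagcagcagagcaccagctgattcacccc
Rsad2, chr12:26456498-26456617, minus strand: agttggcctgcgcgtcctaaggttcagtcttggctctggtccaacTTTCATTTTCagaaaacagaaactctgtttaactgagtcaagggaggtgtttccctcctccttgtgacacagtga
Bst2, chr8:71537518-71537637, minus strand: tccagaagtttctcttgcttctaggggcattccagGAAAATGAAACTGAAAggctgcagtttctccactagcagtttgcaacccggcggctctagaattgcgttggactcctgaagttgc
Oasl2, chr5:114896769-114896888, plus strand: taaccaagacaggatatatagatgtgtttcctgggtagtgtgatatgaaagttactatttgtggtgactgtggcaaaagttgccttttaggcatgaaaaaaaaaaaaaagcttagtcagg
Epsti1, chr14:77904074-77904193, plus strand: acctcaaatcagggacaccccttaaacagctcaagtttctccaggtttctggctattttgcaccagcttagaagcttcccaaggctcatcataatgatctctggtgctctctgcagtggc
The stretch of Isg15 held 3 overlapping cores, that of Bst2 held 2 overlapping cores, and those of Ifit1 and Ifit3 each held 2 separate ones.

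Several deposited names did not match the marker genes of the cells. Cells named Mono (cluster 5, 204 in TG and 258 in WT) carried neutrophil transcripts. Levels are given as CPM, the UMIs of a gene divided by all UMIs of the summed cells and scaled to 1e6. Retnlg stood at 10455 CPM in TG against 10254 CPM in WT, and Csf3r, the receptor of G-CSF, at 2862 and 2960 CPM. The 5 neutrophil markers summed to 62506 CPM in TG and 42394 CPM in WT, and the 5 monocyte markers, which neutrophils express in part, to 3161 and 2438 CPM. Of the latter Ccr2 stood at 21.7 and 40.2 CPM, Csf1r at 224 and 214 CPM, Ly6c2 at 436 and 297 CPM, Itgam at 608 and 467 CPM, and Lyz2 at 1871 and 1420 CPM. In cells named Neu Csf1r was lower, at 74.3 and 10.9 CPM, and Lyz2 was higher, at 13794.5 and 10449 CPM. The first are therefore called cells named Mono or cluster 5, and not monocytes. Cells named Macro (109 in TG and 261 in WT) fell into 3 clusters. Of the 7 macrophage markers in the table, 5 (C1qa, C1qb, C1qc, Cd5l and Marco) were at 0 in TG, and C1qa stood at 247 CPM in WT. Cluster 27 held the C1q transcripts, with 23 WT cells and 0 TG cells. The others were cluster 15 (89 and 158 cells), led by Clec4a1 and Cd209a, and cluster 22 (20 and 80 cells), led by the dendritic cell gene Xcr1. Cells named NK carried Cd3e at 1158 CPM in TG against 97.8 CPM in WT, and their 5 T cell markers summed to 4071 and 1617 CPM. Cluster 8 was the NK cluster with Cd3e low in both libraries (133 and 67.5 CPM). Cells named CD8αα had Trdc, a gene of the γδ receptor, at 95.1 CPM in TG against 855 CPM in WT, and cells named NKT had Cd4 at 634 and 162 CPM. Erythroid markers summed to 4860 CPM in WT and 0.755 CPM in TG in cells named CD8αα, to 1698 and 1.31 CPM in cells named NK, and to 182 and 0.377 CPM in cells named CD8αβ, with haemoglobin genes among the leading 10 of clusters 2 and 3. The part of these transcripts in the ratios of these names was not tested. Cells named immature B had less Vpreb3 (17.2 and 44.2 CPM) than cells named mature B (142 and 217 CPM), but a similar level of Cd24a (294 and 531 CPM against 288 and 487 CPM). The 3 immature B markers in the table summed to 313 and 576 CPM in cells named immature B and to 436 and 717 CPM in cells named mature B. The terms NK cells and immature B cells below stand for these deposited names and not for an identity shown by markers.

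The 34 genes differed in where they were highest, and for 19 of them the highest cell type, the mixed rest left aside, bore the same name in both libraries. Cells named Mono had the highest level of 10 genes in WT and of 15 in TG. The same was not counted over all genes, so these counts and those of pDC below describe the 34 genes only. Names with few cells were ranked too, and Ifit2 and Oas1a were highest in WT basophils (16 cells) at 46.2 CPM. Oasl2, a 2′-5′-oligoadenylate synthetase-like antiviral protein, stood there at 666 CPM in WT (598 to 740) and 1680 CPM in TG (1578 to 1787). In WT the next cell type for Oasl2 was pDC at 80.0 CPM, and in TG it was the cells named Neu at 270 CPM. Rsad2, the antiviral enzyme viperin, stood at 369 CPM in WT and 553 CPM in TG in cells named Mono, and no other cell type passed 134 CPM. Rtp4 (254 and 537 CPM), Ifit1 (88.0 and 237 CPM), Ifit3 (80.4 and 251 CPM), Isg15 (178 and 294 CPM) and Isg20 (128 and 191 CPM) were also highest in cells named Mono in both libraries.

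Plasmacytoid dendritic cells (pDC), which are known for making type I interferon, had the highest level of 6 genes in each library. Bst2, or tetherin, which is also a marker of mouse pDC, stood at 1442 CPM in WT (219 cells) and 2088 CPM in TG (46 cells), and in every other type it was at or below 232 CPM. Irf7, the factor that drives IFN-α genes, stood at 212 CPM (185 to 242) and 360 CPM (293 to 437) in pDC. The intervals of pDC and of cells named Mono overlapped in both libraries, with the latter at 163 CPM (130 to 201) in WT and 256 CPM in TG. Ifi44 stood at 99.05 CPM in WT and 114 CPM in TG in pDC and at or below 21.2 CPM in every other type. Ifitm3, a membrane protein that blocks viral entry, was shared by the myeloid names, with 1303 CPM in Macro, 849 CPM in Neu and 792 CPM in Mono in WT, and 1766, 2136 and 1730 CPM in TG. In T, NK and B cells Ifitm3 was at or below 67.5 CPM.

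Lymphocytes had the highest level of other genes. Epsti1 stood at 398 CPM in WT CD8αα cells and 573 CPM in TG CD8αα cells, and at 81.5 CPM (WT) and 94.96 CPM (TG) in mature B cells. Ifi27l2a, a mitochondrial protein gene, was highest in CD4 T cells at 514 CPM in WT and 747 CPM in TG, and was low in WT CD8αα (9.09 CPM) and NK cells (17.4 CPM). Lgals3bp, a secreted binding partner of galectin-3, was highest in γδ T cells, with 305 CPM in WT (192 cells) and 418 CPM in TG (17 cells). Trim25, the ubiquitin ligase that acts on RIG-I, was highest in mature B cells, at 163 and 151 CPM. These levels are set side by side for each gene and not between genes, since transcripts differ in length and capture.

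**Figure D1:**
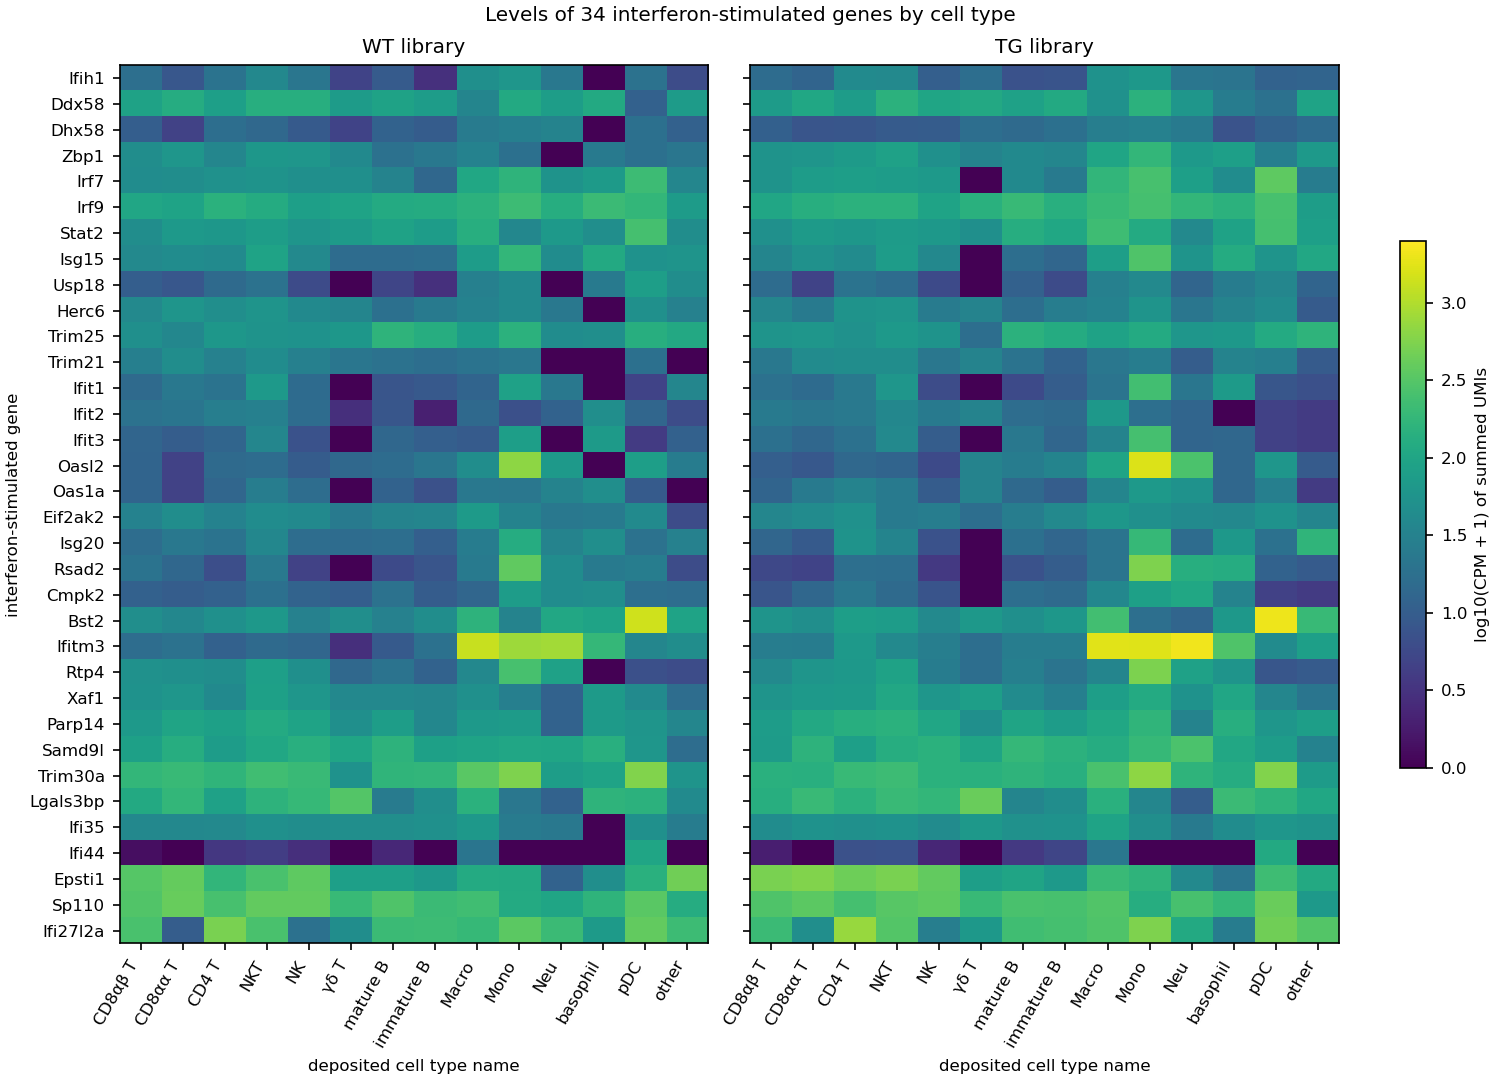
Level of each of the 34 interferon-stimulated genes (rows) in each deposited cell type (columns), as log10 of CPM plus 1 of the summed UMIs, for the WT library and the TG library. Oasl2 in cells named Mono (666 CPM in WT, 1680 CPM in TG), Bst2 in pDC (1442 and 2088 CPM) and Ifitm3 in cells named Macro, Mono and Neu are among the brightest fields of the map.

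TG and WT were compared in the 9 names with at least 50 cells in both libraries. A gene was counted where the summed UMIs of both libraries reached 20, and as past the threshold where its CPM differed by more than 1.5-fold. In cells named Mono the log2 ratio (TG over WT) had its highest median, 0.64, where 17 of 32 genes were higher in TG and 1 was lower. Over all genes of these cells the median was -0.08, and 12.8% were higher and 16.2% lower by the same rule. In CD4 T cells the median was 0.54, with 15 of 33 genes higher and 1 lower, beside 16.3% and 9.81% of all genes and a median of 0.08. In cells named Macro the median was 0.45, with 14 of 34 higher and 0 lower, beside 15.2% and 11.4% and a median of 0.07. In cells named immature B it was 0.32, with 10 of 27 higher and 0 lower, beside 9.87% and 10.7%. In mature B cells it was 0.22, with 8 of 33 higher and 0 lower, beside 6.05% and 8.07%.

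In the remaining 4 names few genes were higher. CD8αα cells had a median of 0.23, with 4 of 28 genes higher and 3 lower, beside 14.1% and 9.09% of all genes. The median was 0.10 in NKT cells, with 3 of 34 higher and 2 lower, beside 10.2% and 7.69%. In CD8αβ cells it was 0.05, with 3 of 33 higher and 1 lower, beside 11.4% and 8.23%. NK cells had a median of -0.09, with 3 of 31 higher and 9 lower, beside 9.74% and 11.6%. Higher shares than those of all genes were thus found in cells named Mono and Macro, CD4 T cells and both B cell names. A higher share of lower genes was found in cells named NK, but it lay near the background in their cluster 8 alone. The shares in CD8αβ, CD8αα and NKT cells lay near the background. In cluster 0 of the NKT cells alone, 6 of 33 genes were higher and 2 lower, beside 10.7% and 8.18% of all genes. The median there was 0.36.

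**Figure D2:**
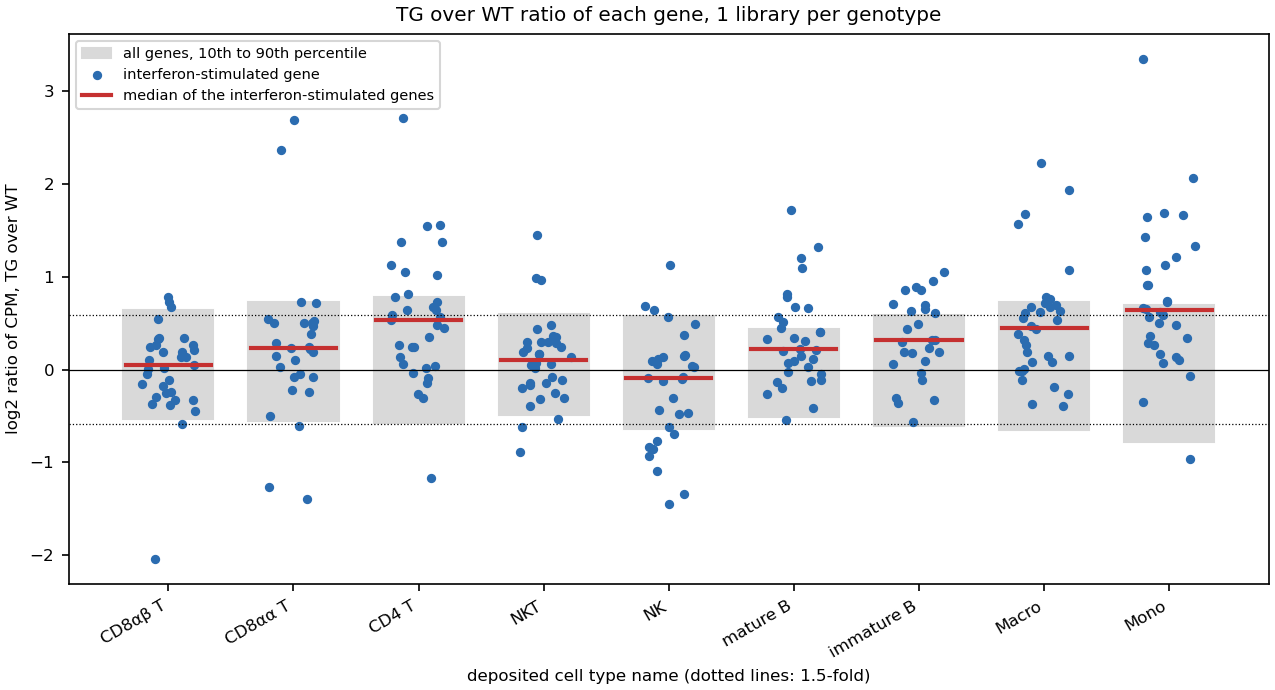
Log2 ratio of CPM, TG over WT, for each interferon-stimulated gene with at least 20 UMIs (points), with their median (red line) and the 10th to 90th percentile of all genes with at least 20 UMIs (grey box), for the 9 compared cell types. The median lies between -0.09 in NK cells and 0.64 in cells named Mono, and the dotted lines mark 1.5-fold.

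In cells named Mono the higher genes came from most of the functional groups. Among the sensors of nucleic acids, Zbp1, a Z-form nucleic acid sensor that can start necroptosis (chr2:173206612-173218923 on GRCm38), stood at 17.2 CPM in WT (7.87 to 32.7) and 176 CPM in TG (144 to 212). Its log2 ratio was 3.35 (2.37 to 4.52), and its WT level rested on 9 UMIs, 55.6% of them in 3 cells. The other sensors differed little, with log2 ratios of 0.10 for Ifih1 (MDA5), 0.37 for Ddx58 (RIG-I) and 0.07 for Dhx58 (LGP2), each with an interval that held 0. Of the factors that carry the signal, Stat2 stood at 36.4 and 117 CPM in WT and TG (log2 1.69, 0.94 to 2.50), Irf7 at 163 and 256 CPM (0.65, 0.26 to 1.05) and Irf9 at 210 and 252 CPM (0.26). Stat2 and Irf7 were thus past 1.5-fold and Irf9 was not.

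Of the RNA-directed effectors in these cells, 5 of the 6 with enough UMIs were higher. Oasl2 had a log2 ratio of 1.34 (1.16 to 1.52) on 1005 and 348 UMIs, which made it one of the best counted. Ifit1 and Ifit3, which both lie on chromosome 19, had log2 ratios of 1.43 (0.94 to 1.94) and 1.64 (1.14 to 2.17). Oas1a, the synthetase that activates RNase L, stood at 21.0 CPM in WT and 66.9 CPM in TG (1.67, 0.68 to 2.78). The kinase PKR, encoded by Eif2ak2, was past 1.5-fold too, but its interval of -0.28 to 1.58 held 0. Isg20, an exonuclease, was just inside the threshold at 0.57. The 3 highest cells held 33.1% of the TG UMIs and 41.3% of the WT UMIs of Ifit1.

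Other effectors in cells named Mono divided. Isg15, a ubiquitin-like protein, was 1 of the 5 genes of its system to pass 1.5-fold, with 178 CPM in WT and 294 CPM in TG (log2 0.73, 0.35 to 1.10). Usp18, which removes ISG15 from proteins and dampens the receptor, stood at 40.2 and 38.4 CPM. Rsad2 (0.58) and its neighbour Cmpk2 (0.16), which both act on nucleotides, did not pass 1.5-fold. Ifitm3 stood at 792 and 1730 CPM (1.13, 0.96 to 1.29), whereas Bst2 was lower in TG at 16.7 CPM against 32.5 CPM, on 27 UMIs in all and with an interval of -2.25 to 0.25. Among the remaining genes Xaf1, an antagonist of the apoptosis inhibitor XIAP, had the highest ratio, with 28.7 and 120 CPM (2.07, 1.25 to 2.98), followed by Parp14 at 1.22, Rtp4 at 1.08, Ifi35 at 0.91 (-0.08 to 1.98) on 28 TG and 13 WT UMIs, and Samd9l at 0.91 (0.43 to 1.41) on 114 and 53 UMIs. The S100a8 level of these cells also differed, with 10788 CPM in WT and 21386 CPM in TG, and so did their median depth, with 1769.5 and 2614.5 UMIs per cell. After each cell was thinned to 1000 UMIs the median of the 25 genes that kept 20 UMIs was 0.81, and the part of S100a8 in the ratios was not tested. Ifit2 and Ifi44 were under the minimum of 20 UMIs in cells named Mono.

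**Figure D3:**
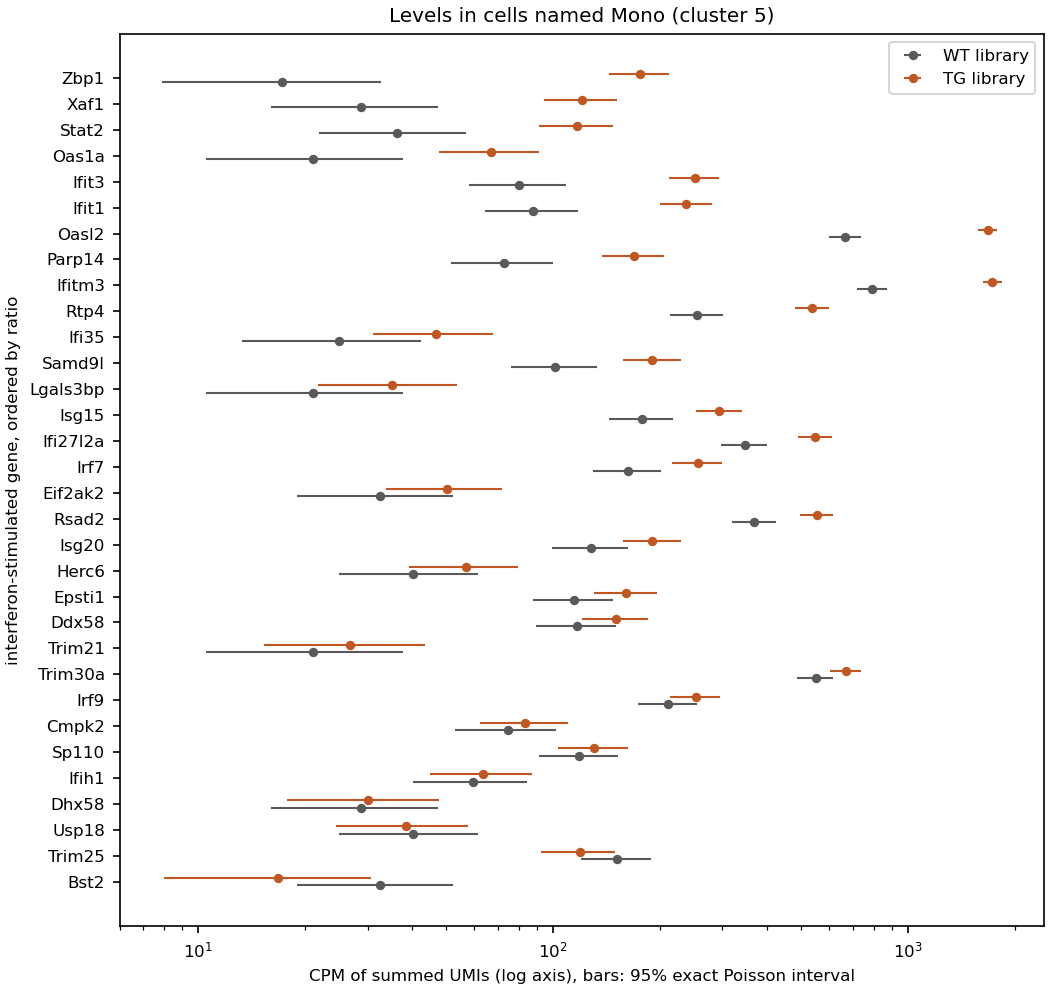
CPM of each interferon-stimulated gene with at least 20 UMIs in cells named Mono (log axis), in the WT library (grey, 258 cells) and the TG library (orange, 204 cells), with 95% exact Poisson intervals, ordered by ratio. The intervals of both libraries are apart for the genes from Zbp1 down to Rtp4 and overlap for those from Isg20 down to Bst2.

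In cells named Macro, Ifit2 had the highest ratio of the genes with at least 50 UMIs. It stood at 13.6 CPM in WT and 63.7 CPM in TG (log2 2.23, 1.40 to 3.10), and 41.0% of its TG UMIs lay in 3 cells. Zbp1 stood at 30.7 and 98.0 CPM (1.67, 1.08 to 2.27) and Oasl2 at 45.0 and 94.8 CPM (1.07, 0.53 to 1.61). Stat2 (0.70) and Irf7 (0.72) were past 1.5-fold as in cells named Mono. Ifit3 (1.93) and Cmpk2 (1.57) rested on 32 and 39 UMIs. Trim30a, which restrains TLR signalling, had the lowest log2 ratio of the better counted genes at -0.37, followed by Eif2ak2 at -0.19 and Rtp4 at -0.11. None of the 5 genes of the ISG15 system passed 1.5-fold, and Isg15 itself stood at 74.3 CPM in WT and 78.4 CPM in TG.

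The clusters within the name Macro were not alike in the libraries, and the count moved with them. In cluster 15 alone 7 of 34 genes were higher and 0 lower, with a median of 0.29, beside 15.1% and 12% of all genes. The cells of cluster 15 were not alike either, with Fcgr4 at 127 CPM in WT and 656 CPM in TG, Cd209a at 578 and 326 CPM, and C1qa at 41.2 and 0 CPM, and the part of this in the ratios was not tested. Ifit2 (2.75, 1.62 to 4.07), Ifit3 (1.94), Cmpk2 (1.33), Zbp1 (1.20) and Epsti1 (0.99) remained past 1.5-fold there. Without cluster 27, 12 of 34 genes were higher and 0 lower, beside 14.8% and 10.2% of all genes. With the 3 highest cells of each gene left out, 7 of 31 were higher and 2 lower, beside 9.25% and 19.7%. At 1000 UMIs per cell 7 of 18 were higher and 2 lower, beside 18.2% and 17.2%.

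In CD4 T cells Ifitm3 stood at 10.3 CPM in WT and 67.5 CPM in TG, a log2 ratio of 2.72 (1.96 to 3.53), with 36.8% of the TG UMIs in 3 cells. Isg20 stood at 18.5 and 54.5 CPM (1.56, 0.90 to 2.23) and Epsti1 at 171 and 443 CPM (1.38, 1.16 to 1.59). Epsti1 was the best counted of these, and its 3 highest TG cells held 8.82% of its UMIs. Among the others past 1.5-fold were Oas1a (1.37), Ifih1 (1.12), Zbp1 (1.02), Lgals3bp (0.82), Xaf1 (0.78), Eif2ak2 (0.72) and Bst2 (0.68). The lowest of the well counted genes were Ifit2 (-0.30), Trim25 (-0.26) and Ddx58 (-0.15), and Isg15 stood at 41.6 CPM in WT and 42.6 CPM in TG. Dhx58 was the gene past 1.5-fold in the lower direction, at 15.9 and 7.10 CPM, with an interval of -2.72 to 0.12. In cluster 6, which held most of the WT cells of this name (397, beside 58 in TG), 11 of 25 genes were higher and 1 lower, beside 17% and 17.7% of all genes. In cluster 9 (132 TG and 272 WT cells) 11 of 30 were higher and 1 lower, beside 12.6% and 12.3%. The cells of cluster 9 were not alike in the libraries, with Foxp3 at 36.3 CPM in WT (27 UMIs) and 2.10 CPM in TG (1 UMI). The part of this in the ratios was not tested. Among the 3 clusters the difference in Ifitm3 was largest in cluster 9, at 5.38 CPM in WT and 101 CPM in TG, whereas cluster 6 had 12.01 and 17.2 CPM on 12 and 3 UMIs, and cluster 21 (65 WT and 48 TG cells) had 19.6 and 30.8 CPM. Epsti1 was higher in TG in cluster 6 (76.1 and 287 CPM) and cluster 9 (268 and 580 CPM), and stood at 279 and 246 CPM in cluster 21. Isg20 stood at 13.5 and 54.7 CPM in cluster 9 (2.02, 0.92 to 3.24), at 12.01 and 22.9 CPM in cluster 6 on 12 and 4 UMIs, and at 68.4 and 82.1 CPM in cluster 21. Cluster 21 thus had the highest Isg20 level of the 3 in both libraries, and it held 48 of the 238 TG cells and 65 of the 734 WT cells of this name. The neutrophil marker list, which CD4 T cells should lack, summed to 154 CPM in WT and 453 CPM in TG. B cell markers summed to 578 and 974 CPM in WT and TG and monocyte markers to 367 and 630 CPM, whereas endothelial markers summed to 112 and 66.3 CPM. The part of these in the ratios was not tested.

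The same neutrophil markers were higher in TG in each of the 7 lymphocyte names compared, where S100a8 stood between 25.5 and 56.0 CPM in WT and between 93.5 and 175 CPM in TG. None of the 5 markers was at 0 in these cells, except 1 in WT NK cells. Ifitm3 was past 1.5-fold in 6 of these 7 names, the exception being CD8αα at 0.50. For each UMI of S100a8, the UMIs of Ifitm3 were more numerous in TG than in WT in mature B cells (0.283 against 0.160) and CD4 T cells (0.385 against 0.183) and nearly equal in NKT cells (0.351 against 0.341). They were fewer in TG in CD8αβ cells (0.246 against 0.388), CD8αα cells (0.236 against 0.714), NK cells (0.196 against 0.323) and immature B cells (0.287 against 0.474). In those 4 names S100a8 thus differed between the libraries by a larger factor than Ifitm3. Cells named Mono, which carried neutrophil transcripts, had 0.0809 UMIs of Ifitm3 for each UMI of S100a8 in TG and 0.0734 in WT. Cells named Neu had 0.0344 and 0.0204. These values of Mono and Neu lay below those of all 7 lymphocyte names compared, in both libraries. The part of neutrophil transcripts in the ratios of Ifitm3 was not tested.

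In mature B cells the higher genes other than Ifitm3 (8.07 and 26.5 CPM, log2 1.71) were led by Usp18 and Zbp1. Usp18 stood at 4.17 CPM in WT and 10.4 CPM in TG (1.32, 0.41 to 2.30), and Zbp1 at 17.5 and 40.5 CPM (1.21, 0.77 to 1.66). Irf9 was the best counted of the higher genes, with 120 and 193 CPM (0.68, 0.50 to 0.86). Lowest of the better counted genes were Ifih1 (-0.42), Eif2ak2 (-0.26) and Cmpk2 (-0.20). Cluster 1 held most cells of this name (1028 in TG and 1329 in WT). In cluster 1 alone Ifih1 stood at 0.17 (-0.85 to 1.22) on 20 TG and 16 WT UMIs, so its direction was not kept. Eif2ak2 (-0.16, -0.62 to 0.29) and Cmpk2 (-0.34, -0.92 to 0.24) stayed below 0 there. In this cluster 10 of 33 genes were higher and 0 lower, with a median of 0.37, beside 7.02% and 6.76% of all genes. Cells named immature B had Parp14, an ADP-ribosyltransferase, at 36.4 and 75.3 CPM (1.05, 0.48 to 1.64) and Samd9l at 84.6 and 153 CPM (0.86, 0.48 to 1.24). Zbp1 was higher in them as well, but its interval of -0.07 to 1.51 held 0, as did those of 6 further genes among the 10. At 1000 UMIs per cell 4 of the 11 genes that kept 20 UMIs were higher in immature B cells and 1 was lower, beside 13.6% and 15.7% of all genes. Trim30a (-0.32), Xaf1 (-0.31) and Trim25 (-0.11) were lowest among the well counted genes there.

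NKT cells showed the genes in a separate way. Cluster 20, with 23 TG and 119 WT cells of this name, had Ifit1, Ifit3, Usp18, Cmpk2, Isg15 and Rsad2 among its 10 leading genes, so that these genes helped to form it and their levels in it are a description. Ifit1 stood in cluster 20 at 855 CPM in WT and 771 CPM in TG, and Isg15 at 684 and 511 CPM. The cluster held 70.4% of the Ifit1 UMIs of WT NKT cells and 67.6% of those of TG NKT cells, and 80.9% and 71.4% of the Rsad2 UMIs, but only 8.36% and 9.78% of the Epsti1 UMIs. Its WT cells had Zbtb16, the NKT factor, at 64.5 CPM, and its TG cells at 10.9 CPM on 1 UMI, with Cd8a at 89.7 and 522 CPM.

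Over all NKT cells Epsti1 stood at 266 CPM in WT and 527 CPM in TG (log2 0.98, 0.87 to 1.10) and Ifitm3 at 14.1 and 38.5 CPM (1.45, 0.98 to 1.92). Zbp1 followed at 0.48 among the genes with at least 50 UMIs. Eif2ak2 was lower, with 43.9 and 23.8 CPM (-0.88, -1.39 to -0.41), followed by Dhx58 at -0.62 and Rsad2 at -0.54, whose intervals both held 0. Without cluster 20 the median was 0.27, and 5 of 34 genes were higher and 2 lower, beside 10.5% and 7.65% of all genes. In cluster 0 alone, with 403 TG and 1986 WT cells, 6 of 33 genes were higher and 2 lower, beside 10.7% and 8.18% of all genes. Among the 6 was Ifit3, at 8.15 and 16.7 CPM (1.03, 0.28 to 1.75), and the median was 0.36. In cluster 0 Rsad2 had a log2 ratio of 0.19 (-1.17 to 1.37), Dhx58 of -0.85 (-2.05 to 0.17) and Eif2ak2 of -0.64 (-1.24 to -0.09). The cells of cluster 0 were not alike in the libraries. Cd4 stood there at 161 CPM in WT and 641 CPM in TG, and Zbtb16 at 104 and 42.3 CPM. The part of this in the ratios was not tested.

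In cells named NK 9 genes were past 1.5-fold in the lower direction, more than in any other name compared. Ifih1 stood at 20.6 CPM in WT and 9.64 CPM in TG (log2 -1.09, -1.94 to -0.27), Rtp4 at 48.6 and 25.4 CPM (-0.93, -1.45 to -0.43) and Herc6, a ligase that attaches ISG15, at 40.5 and 24.97 CPM (-0.70, -1.24 to -0.16). Ifit1 (-1.45) and Isg20 (-1.34) rested on 35 and 39 UMIs. Ifitm3 (1.13), Ifit2 (0.69) and Ifi27l2a (0.64) had the highest ratios. Since TG cells of this name carried more T cell transcripts, the same values were taken in cluster 8 alone. There 3 of 25 genes were lower and 1 was higher, with a median of -0.01, beside 13.1% and 9.73% of all genes. The share of lower genes thus lay near the background among the genes that reached 20 UMIs there. Ifit1, Oasl2, Isg20 and Cmpk2, which were lower over the whole name, did not reach that number. Their levels in cluster 8 were 11.02, 15.2, 6.89 and 12.4 CPM in WT and 1.77, 5.31, 3.54 and 7.08 CPM in TG. Usp18 and Ifit3, also under 20 UMIs, each stood at 8.27 CPM in WT and 14.2 CPM in TG. In cluster 8 Ifih1 had a log2 ratio of -1.64 (-3.68 to -0.01) on 20 UMIs, Rtp4 of -0.42 (-1.48 to 0.59), and Ifitm3 of 0.36. Cluster 3, the largest, was unlike in the libraries as well, with Cd3e at 122 CPM (WT) and 1608 CPM (TG) and Ncr1 at 961 and 506 CPM, and the part of this in its ratios was not tested. There 4 of 26 genes were lower and 2 higher, beside 12.7% and 11.5%. In cluster 3 Ifih1 had a log2 ratio of -0.20 (-1.33 to 0.91), Rtp4 of -0.69 (-1.38 to -0.03), and Ifitm3 of 2.22 (0.78 to 3.97) on 5 WT and 22 TG UMIs. Without cluster 11 (343 TG and 22 WT cells) 4 of 30 genes were lower and 2 higher, beside 10.3% and 8.84% of all genes.

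In the 2 CD8 T cell names most genes lay close to 0. In CD8αβ cells Epsti1 stood at 318 CPM in WT and 525 CPM in TG (log2 0.72, 0.62 to 0.83), Ifitm3 at 15.3 and 26.4 CPM (0.78) and Usp18 at 9.46 and 15.1 CPM (0.67, 0.04 to 1.34). Rsad2 was lower, at 18.6 and 4.53 CPM (-2.04, -2.79 to -1.33), and the 3 highest cells held 61.4% of its WT UMIs. Cells of this name were spread over 6 clusters in unlike shares, with 145 TG and 363 WT cells in cluster 4, 319 and 132 in cluster 7, and 249 and 73 in cluster 12. Epsti1 was higher in TG in each of these 6 clusters, with 357 and 472 CPM in WT and TG in cluster 4 and 271 and 485 CPM in cluster 7. Of the 57 WT UMIs of Rsad2, 41 lay in cluster 4 (39.1 and 15.2 CPM), and cluster 7 had 4.26 and 3.72 CPM. Cmpk2, which lies beside Rsad2 on chromosome 12, was at -0.58, and Rtp4 at -0.45. In CD8αα cells Ifi27l2a stood at 9.09 and 46.8 CPM (2.36, 1.06 to 4.04), on 5 WT UMIs. Oas1a stood at 3.64 and 23.4 CPM there, on 2 WT UMIs. Trim25 (0.73), Irf7 (0.72) and Irf9 (0.54) had the highest ratios among the genes with at least 50 UMIs, and Herc6 (-1.27, -2.02 to -0.51), Trim30a (-0.50) and Ddx58 (-0.24) the lowest. With the 3 highest cells of each gene left out, 8 of 25 genes were higher and 1 was lower in CD8αα cells, beside 21.5% and 6.02% of all genes treated alike. Without the cells that had a Trdc UMI, 6 of 25 genes were higher and 2 lower, and the median was 0.05, beside 17.5% and 10.3% of all genes.

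Read by gene, Irf7, Irf9, Ifit3, Ifitm3, Parp14 and Epsti1 had a ratio above 0 in all 9 names. The share of all genes that did so was not counted. Ifitm3 was past 1.5-fold higher in 7 of the 9 names, and Irf7 and Zbp1 in 5. Ifit3, Oasl2, Oas1a, Parp14, Epsti1 and Ifi27l2a were so in 4. How many of all genes passed in as many names was not counted. Irf7 stood between 12.8 and 163 CPM in WT and between 23.7 and 256 CPM in TG over the 9 names. Ifih1, Ifit1, Eif2ak2, Isg20, Rsad2 and Rtp4 were past 1.5-fold higher in 1 name and lower in another, with intervals that left out 0. These were 17.6% of the 34, beside 5.7% of the 10448 genes tested in at least 2 cell types. Oasl2, Oas1a, Cmpk2, Dhx58 and Bst2 also passed 1.5-fold both ways, but with intervals that held 0 in at least 1 direction. The share of all genes under that wider rule was not counted. Trim21, Trim30a and Sp110 did not pass 1.5-fold in either direction in any of the 9 names. Genes with and without the ISRE core in their promoter had medians of 0.62 and 0.57 in cells named Mono, 0.44 and 0.47 in cells named Macro, 0.59 and 0.31 in CD4 T cells, and -0.45 and -0.03 in NK cells. They were -0.08 and 0.29 in NKT cells, 0.10 and 0.28 in CD8αα cells and 0.01 and 0.03 in CD8αβ cells. In mature B cells they were 0.07 and 0.21, and in immature B cells 0.32 and 0.19. The 6 genes without a promoter entry are in neither group.

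Counted per cell, the difference was widest in cells named Mono. All cells had at least 1000 UMIs and were thinned to that number, so that depth was equal. The median cell named Mono then had 5 of the 34 genes in TG and 3 in WT. The share of cells with 5 or more of the genes was 62.3% in TG (55.2 to 68.9, 204 cells). In WT it was 23.3% (18.2 to 28.9, 258 cells), and these intervals did not overlap. They take single cells as the unit and do not cover the spread between mice. In TG 72.1% of cells named Mono had an Oasl2 UMI (65.4 to 78.1), and in WT 38.4% did (32.4 to 44.6), against 2.25% and 1.14% of mature B cells. Zbp1 was found in 15.7% and 1.16%, Rtp4 in 40.2% and 20.2%, and Ifit3 in 15.2% and 3.88%. Without thinning Oasl2 was found in 90.7% and 54.3%. Also without thinning, and so at unequal depth, the 10% of cells richest in these transcripts held 28.1% of all UMIs of the 34 genes in TG and 38.5% in WT.

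Elsewhere the shares with 5 or more genes were closer, as differences in percentage points. They were 13.4% in TG and 6.95% in WT for CD4 T cells, 26.6% and 18.0% for cells named Macro, 13.5% and 11.7% for NKT cells, and 28.3% and 19.2% for pDC. In CD8αβ cells they were 5.69% and 5.98%, in NK cells 4.08% and 6.18%, and in mature B cells 5.43% and 4.15%. Of these 7 pairs only the intervals of CD4 T cells (9.38 to 18.4 and 5.22 to 9.03) did not overlap. Cells named Neu stood at 24.1% in TG (13.5 to 37.6, 54 cells) and 0% in WT (0 to 19.5, 17 cells), with intervals that overlapped.

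**Figure D4:**
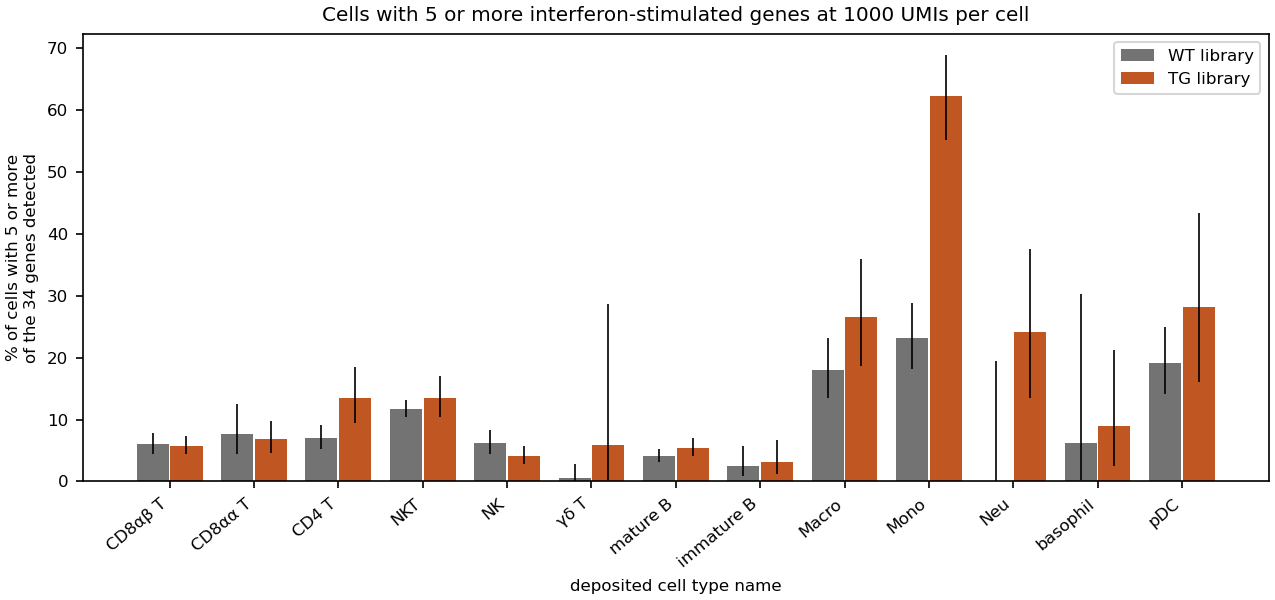
Percent of cells with 5 or more of the 34 interferon-stimulated genes detected after each cell was thinned to 1000 UMIs, by deposited cell type, in the WT library (grey) and the TG library (orange), with 95% Clopper-Pearson intervals. Cells named Mono stand at 62.3% in TG and 23.3% in WT.

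Other genes of the interferon pathway were read from a list of 26, of which 23 were in the table. Among the 4 listed ligands Ifng was the one in the table. It stood at 285 CPM in WT NK cells and 286 CPM in TG NK cells, at 354 and 263 CPM in NKT cells, at 291 and 257 CPM in CD8αα cells, and at 71.9 and 155 CPM in CD4 T cells (log2 1.11, 0.75 to 1.46). Of the pathway genes with enough UMIs, 3 of 17 were higher and 1 lower in cells named Mono, 4 and 2 of 22 in cells named Macro, 7 and 1 of 19 in CD4 T cells, 2 and 1 of 22 in mature B cells, and 5 and 1 of 20 in immature B cells. Of all genes 16.2%, 11.4%, 9.81%, 8.07% and 10.7% were lower in these names, in that order. Beside the 12.8%, 15.2%, 16.3%, 6.05% and 9.87% of all genes that were higher in these names, the share of higher pathway genes was above the background in CD4 T cells and immature B cells. It was closer to the background in the other 3. In CD8αβ cells 3 of 21 were higher, in CD8αα cells 3 of 18, in NKT cells 1 of 20, and in NK cells 1 of 19, beside 11.4%, 14.1%, 10.2% and 9.74% of all genes. In these 4 names 1, 0, 0 and 3 were lower, beside 8.23%, 9.09%, 7.69% and 11.6%. Irf1, an interferon-induced transcription factor, stood at 482 and 1326 CPM in cells named Mono (1.46, 1.25 to 1.67).

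The IFN-γ-inducible GTPases, which act on intracellular pathogens, were read for contrast. All 14 were in the table. Iigp1 and Gbp6 were among the 10 leading genes of NKT cluster 20, beside 6 of the 34 interferon-stimulated genes, so the 2 lists were not separate there. In cells named Macro 11 of the 12 with enough UMIs were higher in TG and 0 lower (median 1.20), in CD4 T cells 11 of 13 and 0 (0.83), in mature B cells 9 of 13 and 1 (0.95), in cells named Mono 8 of 10 and 2 (1.76), and in immature B cells 4 of 10 and 0 (0.56). Of all genes 15.2%, 16.3%, 6.05%, 12.8% and 9.87% were higher in these names, in that order, and 11.4%, 9.81%, 8.07%, 16.2% and 10.7% were lower. Gbp2 stood at 86.1 and 759 CPM in cells named Mono (log2 3.14, 2.70 to 3.62). In CD8αβ cells 2 of 14 were higher and 2 lower (0.02), beside 11.4% and 8.23% of all genes, and in NK cells 1 and 2 of 12 (-0.07), beside 9.74% and 11.6%. In CD8αα cells they were 2 and 0 of 12 (0.01) and in NKT cells 2 and 0 of 14 (0.27), beside 14.1% and 10.2% of all genes higher. Of all genes 9.09% and 7.69% were lower there. In each of the first 5 names the median of the GTPases was above that of the 34 interferon-stimulated genes.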

How the data were processed

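Liver CD45+ cells were captured on BD Rhapsody in 2 pooled libraries. The authors aligned reads to mm10 with STAR in the BD Rhapsody pipeline and deposited UMI counts per gene and cell, corrected by distribution-based error correction, a filtered count table whose filter is not stated in the sources used here, a cell table with genotype, cell type and cluster names, and the mitochondrial percent of each cell, also deposited by the authors and not used in a comparison. Counts were summed per genotype and cell type and given as CPM of all genes of the table with exact Poisson intervals, ratios with exact conditional binomial intervals and shares with Clopper-Pearson intervals, at 95%. A count of 0 in a ratio was set to 3. Of 4 genes checked (Isg15, Ifit3, Oasl2 and Rsad2), the filtered counts equalled the library files in every cell. The antibody tables and the normalized RNA table were not used. The libraries shared 36 cell indices. A gene of the pathway list is not reported here. The genes and lists were chosen with earlier results of these data known. All 34 genes are described by role, and the 3 highest and 3 lowest ratios of a cell type were named among genes that reached 50 UMIs over both sums and 10 per library. Genes with a close copy (Ifit3, Oas1a, Trim30a, Ifit1) may share reads with it. Scrublet in scanpy 1.11.5 (expected rate 5%) marked 0.839% of TG and 3.31% of WT cells, which were kept. TMM factors came from edgeR 4.0.16. Interval calculations were tested on simulated Poisson counts. Positions are those of GENCODE vM21.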

Additional observations from a re-analysis of the deposited data

Results flagged for a closer look

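Of the 34 genes, 6 were past 1.5-fold in opposite directions in a pair of cell types, each with an interval that left out 0. These were 17.6% of the 34, beside 5.7% of the 10448 genes tested in at least 2 cell types. Among the genes tested in all 9 cell types the counts were 3 of 25 (12%) and 213 of 4335 (4.91%), and no test was made of this. Ifih1 had a log2 ratio of TG over WT of 1.12 in CD4 T cells and -1.09 in NK cells, with -1.64 in NK cluster 8 and -0.20 in NK cluster 3. Ifit1 had 1.43 in cells named Mono and -1.45 in NK cells, the latter on 35 UMIs, with -1.24 (-2.90 to 0.20) in NK cluster 3 and too few UMIs in NK cluster 8. Eif2ak2 had 0.72 in CD4 T cells and -0.88 in NKT cells, with 0.78 (-0.14 to 1.70) in CD4 cluster 9, 0.02 (-2.40 to 1.81) in CD4 cluster 6 and -0.64 (-1.24 to -0.09) in NKT cluster 0. Isg20 had 1.56 in CD4 T cells, with 2.02 (0.92 to 3.24) in CD4 cluster 9, and -1.39 in CD8αα cells, the latter on 23 UMIs. Rsad2 had 1.55 in CD4 T cells and -2.04 in CD8αβ cells, with 57.1% of its TG UMIs in CD4 T cells and 61.4% of its WT UMIs in CD8αβ cells in 3 cells each, and 41 of the 57 WT UMIs of CD8αβ cells in cluster 4. In CD4 cluster 6 Rsad2 stood at 2.00 CPM in WT and 45.9 CPM in TG on 2 and 8 UMIs. In CD4 cluster 9 it stood at 12.1 and 12.6 CPM. Rtp4 had 1.08 in cells named Mono and -0.93 in NK cells, and -0.42 in NK cluster 8 and -0.69 in NK cluster 3. With 1 library per genotype, the difference between the cell types was not tested.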

How the results depend on the processing

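All 77 recomputed medians stayed between the medians of the genes' lower and upper interval bounds. Those bounds belong to single genes and are wide, at -0.05 and 0.97 in cells named Macro. Staying between them therefore does not measure how steady a median is. The medians near 0 changed sign in NKT cells at 1000 UMIs per cell (-0.06) and in CD8αβ cells in the largest cluster alone (-0.07). Among 395 recomputed ratios of named genes, 21 left their interval and none that was past 1.5-fold changed sign. Of 86 counts of higher genes 18 moved by over 1.5 times, and of 86 counts of lower genes, 26 did. At 2-fold the counts were 0 in CD8αβ cells, 2 in CD8αα cells, 8 in CD4 T cells, 1 in NKT cells, 1 in NK cells, 4 in mature B cells, 1 in immature B cells, 5 in cells named Macro and 10 in cells named Mono. Of all genes 4.15%, 5.37%, 5.41%, 4%, 3.92%, 1.94%, 2.96%, 4.52% and 5.11% were over 2-fold higher in these names, in that order. With the 3 highest cells of each gene left out they were 8 in CD8αα cells and 7 in cells named Macro, and with a minimum of 5 UMIs 7 of 33 in CD8αα cells, beside 18.5% of all genes. At 1000 UMIs per cell they were 4 in immature B cells and 7 in cells named Macro, where fewer genes kept 20 UMIs. The largest cluster alone gave 6 in NKT cells and 7 in cells named Macro. Added after the data were seen, NKT cells without cluster 20 gave 5 and NK cluster 8 alone gave 1, and the counts without clusters 11 and 27 and without cells with a Trdc UMI were added then too. The 9 lower genes of NK cells became 5 of 22 at 1000 UMIs per cell, beside 13% of all genes, and 4 of 26 in the largest cluster, beside 12.7%. Where no value shows it, the cause was not tested. TMM scaling, totals without ribosomal and mitochondrial genes, and removal of doublets moved no count of higher genes by over 1.5 times. The alternative of counts from the library files was run for 4 genes only and was equal. No paired analysis was possible because there was 1 library per genotype. Depth limits cell types under 50 cells in a library, for which no ratio was given.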

Other observations

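Barcodes without a genotype name also carried these transcripts. In the WT capture, which included P40-/-IL-2Ra-/- cells, the 16829 such barcodes were 69.8% of all barcodes and held 84.9% of the Oasl2 UMIs of the library, 78.5% of those of Ifit3, 75.9% of those of Rsad2 and 73.0% of those of Isg15. In the TG capture, which included IFN-γ ARE-Del-/- cells, the 5379 such barcodes were 53.7% of all and held 60.1%, 61.8%, 56.3% and 59.3% of them. Their cell types and genotypes are not given in the files used here, and no comparison was made. The total UMIs of these barcodes were not read, so the shares show that the transcripts were present and nothing of their level.

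Cells named Neu, pDC, basophils and γδ T cells had fewer than 50 cells in a library and were left out of the ratios. In cells named Neu (54 in TG and 17 in WT) Ifitm3 stood at 2136 and 849 CPM in TG and WT, Oasl2 at 270 and 65.3 CPM and Rsad2 at 134 and 43.5 CPM. In pDC (46 and 219 cells) Irf9 stood at 257 and 176 CPM, Stat2 at 249 and 247 CPM, and Usp18 at 35.6 and 80.0 CPM.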
